A study of Homo sapiens with 2 samples.

Results

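The genes described here are IGF1, its receptor IGF1R, the receptor adaptor IRS1 and the IGF-binding proteins IGFBP1 to IGFBP7, 10 of the 57736 genes in the count table. They were listed by name, with earlier results of these data known, and each was found by its Ensembl identifier. RNA-Seq was performed on 1 library of parental control A1847 cells, labelled CARM1 wild type, and 1 library of CARM1 KO cells. A1847 is an established human epithelial ovarian cancer cell line, both cultures were grown in RPMI medium with serum, and the CARM1 KO cells are 1 clone made with a lentiviral CRISPR guide. CARM1 is an arginine methyltransferase. With 1 library per group no difference has a replicate check, so no p-value is given, and a clone that differs from its parental cells for another reason cannot be told apart from an effect of CARM1.

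Insulin-like growth factors are secreted proteins that bind IGF1R, a receptor tyrosine kinase, at the cell surface. The active receptor phosphorylates docking proteins such as IRS1, which recruit PI3-kinase and thereby the AKT and mTOR branch. The IGF-binding proteins are secreted, hold IGF in the extracellular space, and can block or prolong its action; proteases that cleave them release the ligand. Ovarian cancer cells are known to use this pathway in growth, and IGFBP genes are also known markers of stromal and decidual cells.

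Sequencing depth was 30741953 reads for parental cells and 32300391 for the knockout clone. Reads were scaled by edgeR's TMM method. Levels within a gene are given as CPM, reads scaled to library size, and levels compared between genes as RPKM, which also divides by exon length. In the text below, a gene rose or fell if its fold change was above 3 and the libraries summed to 10 reads or more. The study used the same fold threshold and also required a false discovery rate (FDR) under 0.05, which is not part of these calls. Intervals are exact 95% intervals that cover counting error only. CARM1 had 975 reads in the parental library and 380 in the knockout library, 2.63-fold lower (95% interval 2.33 to 2.97). The guide, printed here because it made the compared clone, matches GRCh37 at chr19:11022919-11022938 on the plus strand, inside exon 5 of the 16 exons of the canonical transcript and within its coding part.
CARM1 guide: agcacggaaaatctacgcgg

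The keratins KRT7, KRT8 and KRT18 of simple epithelia were abundant in both libraries, with 17600 and 70370 reads of KRT8 in parental and CARM1 KO cells, whereas KRT19 had 45 reads and 0 reads and CDH1, or E-cadherin, had 3 and 53. Of the 8 epithelial markers 5 rose, 1 fell and CLDN4 had too few reads to compare. Of all 18563 genes with enough reads, 12.8% rose and 11.7% fell. Of 6 ovarian or Mullerian markers 2 rose, 1 fell, and WT1, MUC16 and SOX17 had too few reads to compare. PAX8 had 311 and 1149 reads, MSLN 201 and 1188, MECOM 16 and 5, and WT1 8 reads and 1 read. MUC16, the CA125 antigen, had 0 reads in the parental and 1 read in the knockout library. Of the 8 fibroblast or stromal markers 1 rose and 6 fell. All 8 had at least 10 reads in parental cells and 2 of 8 in CARM1 KO cells, and their summed level was 1499 CPM in parental and 21.6 in CARM1 KO cells. COL1A2 had 16732 and 3 reads, while COL1A1 had 131 and 537 reads. The summed level of the 8 epithelial markers was 1396 and 4678 CPM, that of 3 endothelial markers was 0.353 and 0.376, and that of 5 leukocyte markers, nearly all of it CD68, was 13.1 and 52.2. CDH5 and CD3E had 0 reads in both libraries. The liver markers ALB and APOA1 summed to 0.161 and 0.157 CPM. In RNA from whole cultures, fewer cells of a type and less RNA per cell cannot be told apart, and the part of these shifts in the results on IGF-binding proteins was not tested.

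The CARM1 KO library held more RNA for several IGF-binding proteins and less for the receptor and its adaptor. IGFBP3, IGFBP7 and IGFBP1 rose 9.40-fold, 28.3-fold and 5.01-fold, IRS1 fell 3.05-fold, and IGF1R was 1.81-fold lower. IGFBP4 had a 2.91-fold higher level, just under the threshold, and IGFBP6 and IGFBP2 were within 1.5-fold of their parental level. IGF1 and IGFBP5 had too few reads to compare. Of the 10 genes, 8 reached 10 reads over both libraries. Of these 8 genes, 3 rose and 1 fell, where 12.8% of all 18563 genes with that many reads rose and 11.7% fell.

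**Figure D1:**
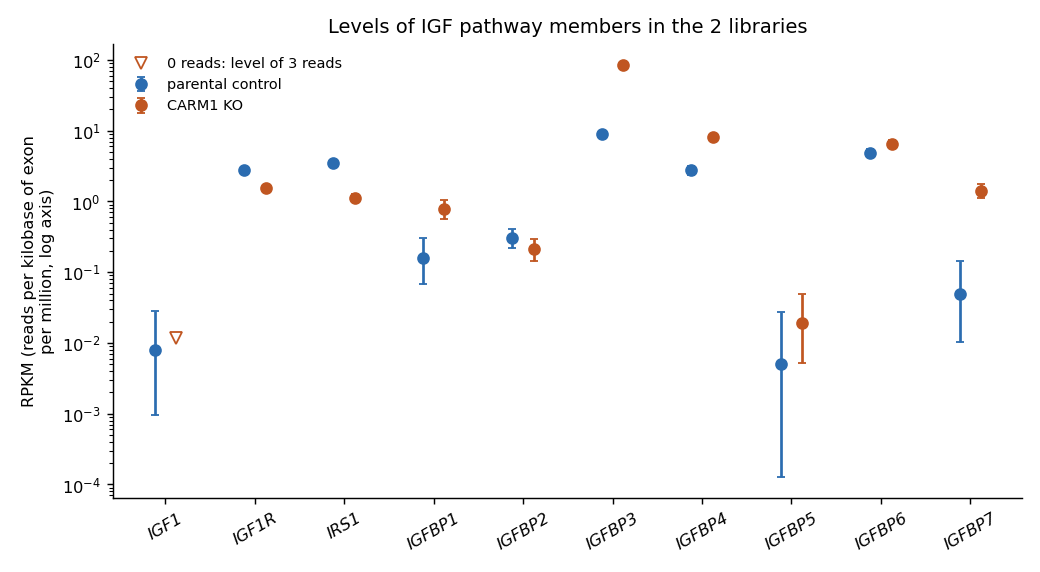
Level of each gene in the parental control (blue) and CARM1 KO (orange) library, in RPKM on a log axis; bars are exact 95% counting intervals, and the open triangle marks the level that 3 reads would give where none was counted. IGFBP3 was highest in both libraries, at 9.0 in parental and 84.5 in CARM1 KO cells, while IGF1 and IGFBP5 lay near the limit of detection.

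The windows from 40 to 11 bases before the start site are shown for 5 of the genes with the most reads, since core promoter elements such as the TATA box lie there. The sequences come from RefSeq promoters of GRCh38.p14, which held 8 of the 10 genes, and each was placed on GRCh37 by an exact match. In GRCh37 they lie at chr15:99191728-99191757 on the plus strand for IGF1R, chr2:227664547-227664576 on the minus strand for IRS1, chr7:45960882-45960911 on the minus strand for IGFBP3, chr17:38599662-38599691 on the plus strand for IGFBP4 and chr12:53491411-53491440 on the plus strand for IGFBP6. Capitals mark the stretch that holds TATA, a motif that reads the same on both strands.
IGF1R: gtgtgcgcgggccagggcgcgcgcgcgcgc
IRS1: tcggcccggaatgtagagacccgggcggga
IGFBP3: ccccggcttcTATATAgcggccggcgcgcc
IGFBP4: ccagggaccggTATAaagtccgggggagcc
IGFBP6: gccggcggctacttaagacagaggggcggc

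IGFBP3 and IGFBP4 had TATA in this window, and the windows of IGF1R, IRS1 and IGFBP6 did not have these letters. Among all 35116 RefSeq promoters, 6.73% had it there. Over 300 bases around the start, the GC content was 79.7% for IGF1R, 79.3% for IRS1, 74.7% for IGFBP3, 74.0% for IGFBP4 and 61.7% for IGFBP6. The median over all promoters was 58.7%, and the upper quartile was 68%. The pair of IGF1 promoters, a gene with almost no reads in either library, had 42.3% and 43.7%. A motif or base composition is a description of the sequence and does not show what bound there.

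Ligand RNA was nearly absent. IGF1, which lies at chr12:102789652-102875522 of GRCh37 on the minus strand, had 2 reads in parental cells and 0 in CARM1 KO cells, which allows up to 3 reads or 0.0116 RPKM. IGF2, the fetal growth factor, had 1 read in each library, and INS had 1 read in the parental library and 0 in the knockout library. At this depth no difference in the ligands was detectable.

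IGF1R spans chr15:99191768-99507759 on the plus strand. It had 1225 reads in the parental library and 693 in the knockout library, or 2.82 and 1.56 RPKM. That is 1.81-fold lower (95% interval 1.65 to 1.99), which is below the parental level by more than counting error but not past the fold threshold. The insulin receptor INSR, which can pair with IGF1R in hybrid receptors, had 787 reads in the parental library and 391 in the knockout library, 2.06-fold lower (95% interval 1.82 to 2.33). IGF2R, which binds IGF2 and carries it to lysosomes, had 2170 and 2383 reads, a 1.07-fold higher level (95% interval 1.01 to 1.14). The insulin receptor-related gene INSRR had 0 reads in the parental library and 3 in the knockout library.

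IRS1, at chr2:227596028-227664536 on the minus strand, had 1080 reads in the parental library and 363 in the knockout library, or 3.46 and 1.14 RPKM. It fell 3.05-fold (95% interval 2.70 to 3.44), so its interval reaches across the threshold. With DESeq2 size factors its log2 fold change was -1.57 in place of -1.61, and it was no longer past 3-fold. Its paralog IRS2, which docks to the same receptors, went the other way with 122 reads in the parental library and 615 in the knockout library, a 4.92-fold rise (95% interval 4.05 to 6.03). RPKM values were 0.480 and 2.36 for IRS2, so the level of IRS1 was above that of IRS2 in parental cells and below it in CARM1 KO cells.

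**Figure D2:**
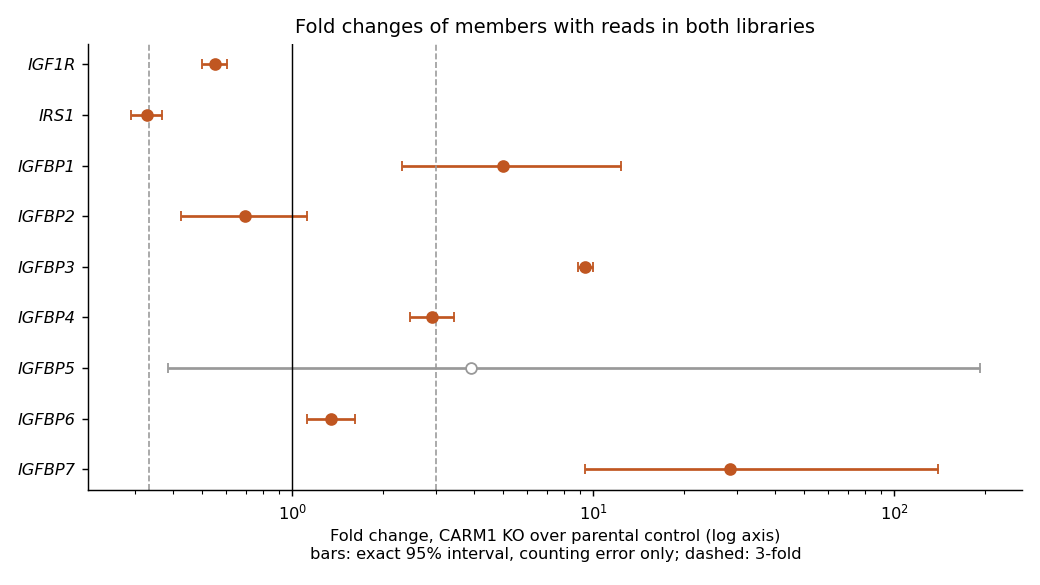
Fold change of each gene with reads in both libraries, CARM1 KO over parental, on a log axis; bars are exact 95% counting intervals, dashed lines mark 3-fold in either direction and the open symbol has under 10 reads. The intervals of IGFBP3 and IGFBP7 lie wholly past 3-fold, those of IRS1, IGFBP4 and IGFBP1 reach across it, and that of IGFBP2 reaches across 1.

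IGFBP3 is the main IGF carrier of blood plasma and a known growth inhibitor in cultured cells. It lies at chr7:45951844-45961473 on the minus strand and had 1280 reads in the parental library and 12315 in the knockout library. In RPKM the level was 9.0 in parental and 84.5 in CARM1 KO cells, which placed it at rank 4025 and rank 343 of 19391 protein-coding genes. It rose 9.40-fold (95% interval 8.87 to 9.96), the 396th largest rise among the 18563 genes compared. This rank is by plain ratio, so genes with few reads also count, and those without parental reads rank first. The call held under each of the 10 alternative settings, including the edgeR exact test with an assumed coefficient of variation of 0.4.

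IGFBP7 binds IGFs weakly, is found in basement membranes and is known as a senescence-associated secreted protein. It spans chr4:57896939-57976551 on the minus strand. The parental library held 3 reads of it and the knockout library 87, a 28.3-fold rise whose 95% interval runs from 9.38 to 140.01. The level in CARM1 KO cells was 1.41 RPKM, under the 8.05 of IGFBP4. IGFBP7 overlaps POLR2B, an RNA polymerase subunit gene on the other strand, with 15907 and 17178 reads. The use of strand in the counting is not given in the sources used here, so reads in the shared stretch cannot be assigned with certainty. The antisense gene IGFBP7-AS1 had 0 reads in either library.

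IGFBP1, a hepatic and decidual binding protein that insulin represses, lies next to IGFBP3 at chr7:45927959-45933259 on the plus strand. It had 8 reads in the parental library and 41 in the knockout library, a 5.01-fold rise (95% interval 2.32 to 12.4). In RPKM this was 0.156 and 0.783, so IGFBP1 stayed a minor transcript beside its neighbour. The rise was not called with a minimum of 50 reads over both libraries, with a coefficient of variation of 0.4, or where the whole interval had to lie past 3-fold.

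IGFBP4, the binding protein that the protease PAPPA cleaves, lies at chr17:38599702-38613977 on the plus strand. It had 190 reads in the parental library and 566 in the knockout library, or 2.77 and 8.05 RPKM. Its 2.91-fold higher level (95% interval 2.46 to 3.45) exceeded counting error and missed the threshold narrowly, as IRS1 narrowly passed it. The counting interval of each reaches across 3, so the calls do not separate these genes in the size of their difference.

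IGFBP6, which prefers IGF2 over IGF1, lies at chr12:53491220-53496129 on the plus strand and had 205 reads in the parental library and 282 in the knockout library. Its level was 1.34-fold higher (95% interval 1.12 to 1.62). IGFBP2, often raised in serous ovarian cancer, lies at chr2:217497551-217529159 on the plus strand. It had 45 reads in the parental library and 32 in the knockout library, a 1.44-fold lower level whose 95% interval, from 0.895 to 2.34, includes 1. IGFBP5, which binds matrix and mineral, lies at chr2:217536828-217560272 on the minus strand and had 1 read in the parental library and 4 in the knockout library. No difference was detectable for IGFBP2 and IGFBP5 at this depth.

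**Figure D3:**
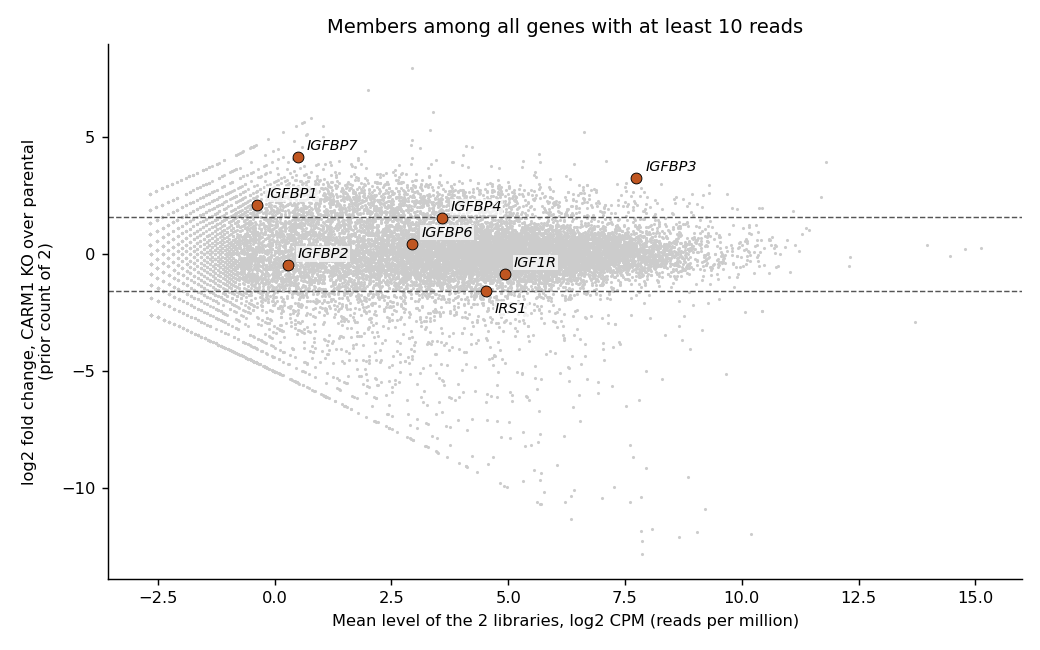
Log2 fold change of CARM1 KO over parental cells, with a prior count of 2, against the log2 CPM averaged over the 2 libraries, for the 18563 genes with at least 10 reads (grey) and the 8 genes of this report among them (orange). Dashed lines mark 3-fold; IGFBP3 stands out as a rise at a high level, at a log2 fold change of 3.23, while IGFBP7 at 4.13 and IGFBP1 at 2.07 are rises at low levels.

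Summed over the 7 IGF-binding proteins, 1732 reads were counted in parental and 13327 in CARM1 KO cells, a 7.52-fold higher total (95% interval 7.15 to 7.91). Without IGFBP3 the sums were 452 and 1012 reads, 2.19-fold higher (95% interval 1.96 to 2.45). IGFBP3 held 52.4% of the family's summed RPKM in parental and 83.2% in CARM1 KO cells. The shares of IGFBP6 were 28.5% and 6.47%, and those of IGFBP4 were 16.1% and 7.93%.

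By RPKM, the order in parental cells was IGFBP3, IGFBP6, IRS1, IGF1R, IGFBP4, IGFBP2, IGFBP1 and IGFBP7. The counting intervals of the neighbours IGF1R and IGFBP4 overlapped, from 2.67 to 2.98 and from 2.39 to 3.19, as did those of IGFBP2 with IGFBP1 and of IGFBP1 with IGFBP7. In CARM1 KO cells the order was IGFBP3, IGFBP4, IGFBP6, IGF1R, IGFBP7, IRS1, IGFBP1 and IGFBP2. There the interval of IGFBP7, from 1.13 to 1.74, overlapped those of IGF1R and IRS1, and the interval of IGFBP1, from 0.562 to 1.06, overlapped that of IRS1. IGFBP5 and IGF1 were lowest in both libraries. IGFBP4, with an interval from 7.40 to 8.74, stood above IGFBP6, from 5.83 to 7.38. With canonical transcript lengths in place of all exons this order turned, with 8.05 for IGFBP4 and 9.34 for IGFBP6, and IGFBP7 at 1.91 stood above IGF1R at 1.78.

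Of the binding protein genes, 4 form 2 neighbouring pairs with no annotated gene between them in the table. IGFBP1 and IGFBP3 lie 18584 bp apart on chromosome 7, and both rose. The next protein-coding genes with at least 10 reads on either side did not pass the threshold. ADCY1, an adenylyl cyclase gene 165244 bp from IGFBP1, was 1.70-fold higher (95% interval 1.35 to 2.14), and TNS3, which encodes a focal adhesion protein and lies 1353279 bp from IGFBP3, was 1.48-fold higher (95% interval 1.28 to 1.71). IGFBP2 and IGFBP5 lie 7668 bp apart on chromosome 2, and neither was past the threshold with enough reads.

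The nearest genes that do not overlap IGFBP7 were also under the threshold. NOA1, 53167 bp away and beyond the overlapping POLR2B, was 1.39-fold higher (95% interval 1.27 to 1.52). On the other side the next such gene was ADGRL3, 4089493 bp away and so not adjacent, at 1.21-fold higher (95% interval 0.790 to 1.88). Near IRS1, RHBDD1, 35761 bp away, was 1.29-fold higher (95% interval 1.14 to 1.47), and DOCK10, a guanine nucleotide exchange factor 1688843 bp away, rose 6.61-fold (95% interval 4.98 to 8.92). The neighbours of IGF1R, named after their values were seen, went opposite ways. ARRDC4, 674705 bp away, had 46 reads in the parental library and 231 in the knockout library, a 4.90-fold rise. PGPEP1L, whose end lies 3699 bp from IGF1R on the other strand, had 242 reads in the parental library and 0 in the knockout library. With the floor of 3 reads in place of 0 it was 82.6-fold lower, and the exact 95% interval starts at 66.7-fold lower.

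**Figure D4:**
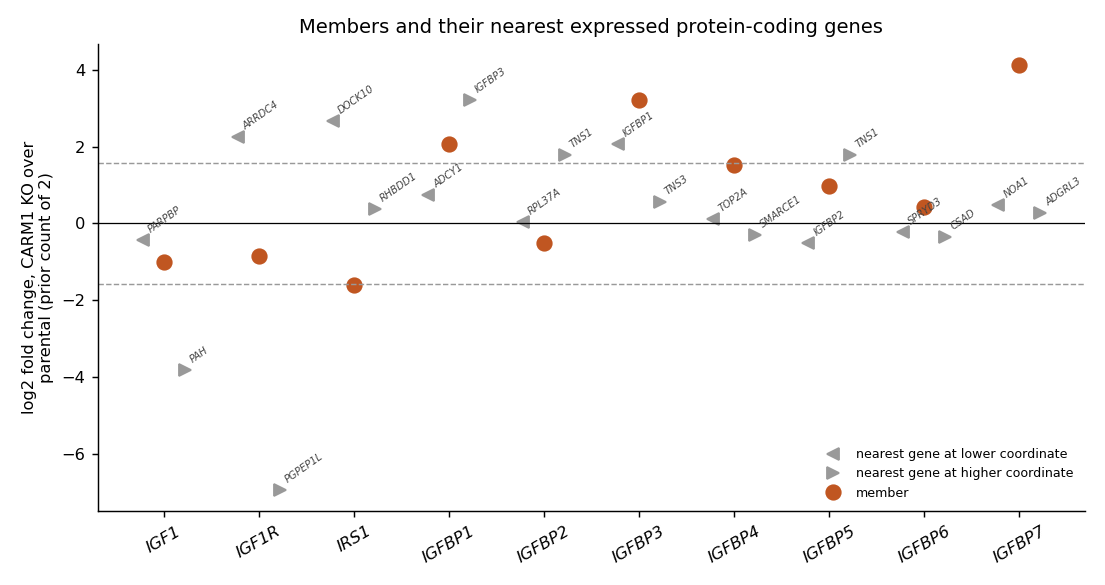
Log2 fold change, CARM1 KO over parental with a prior count of 2, of each gene (orange) and of its neighbours (triangles). These are the nearest non-overlapping protein-coding genes with at least 10 reads at lower (left triangle) and higher (right triangle) coordinates. POLR2B, which overlaps IGFBP7, is left out. Dashed lines mark 3-fold. The neighbours lie from 3699 to 4089493 bp away; those of IGFBP7 are at 0.47 and 0.27, while IGFBP7 itself is at 4.13.

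The genes listed as proteases of IGF-binding proteins, or as inhibitors of those proteases, were higher in CARM1 KO cells wherever they had enough reads. This list and those below were drawn up with earlier results of these data known, so their shares only describe the listed genes. Of 10 listed genes 6 had enough reads, 4 rose and 0 fell, or 66.7% and 0%, where 12.8% of all genes compared rose and 11.7% fell. The median log2 fold change was 1.82, beside -0.02 over all genes compared. STC2, a stanniocalcin that inhibits PAPPA, had 345 reads in the parental library and 1294 in the knockout library, a 3.66-fold rise (95% interval 3.25 to 4.14). STC1, the other stanniocalcin, rose 3.55-fold (95% interval 2.44 to 5.29). PAPPA itself had 0 reads in the parental library and 8 in the knockout library, too few to compare.

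HTRA1, a secreted serine protease with an IGFBP-like domain, rose from 13 to 63 reads, or 4.73-fold (95% interval 2.58 to 9.38). PRSS23, a secreted serine protease that is less directly tied to IGF-binding proteins, had 238 and 2784 reads and rose 11.4-fold (95% interval 10.0 to 13.1). ADAM9 and ADAM12, metalloproteases of the cell surface, were 2.73-fold and 2.33-fold higher and under the threshold. IGFALS, which holds IGFBP3 in its plasma complex, had 0 reads in both libraries.

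Other secreted or surface proteins with an IGFBP-like domain went both ways. Of 12 listed genes 9 had enough reads, 4 rose and 1 fell, or 44.4% and 11.1% beside the 12.8% and 11.7% of all genes. The median log2 fold change was 0.56. CCN1, an integrin-binding matrix protein, had 1960 reads in the parental library and 8436 in the knockout library, a 4.20-fold rise (95% interval 4.0 to 4.42). Its relative CCN2 had 1166 and 1200 reads, 1.01-fold higher (95% interval 0.927 to 1.09), and CCN3 rose 3.51-fold (95% interval 2.73 to 4.56). IGFBPL1 rose 5.75-fold (95% interval 4.26 to 7.89) and CRIM1, a membrane protein that binds BMPs, rose 3.31-fold (95% interval 3.19 to 3.44). KAZALD1 fell 7.60-fold (95% interval 5.89 to 9.94), from 505 reads to 68 reads.

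Among 14 receptor adaptors and docking proteins, 13 had enough reads. IRS2 rose, IRS1 and GRB10 fell, and 10 were not past 3-fold, so that 7.69% rose and 15.4% fell, near the 12.8% and 11.7% of all genes. The median log2 fold change was -0.45. GRB10, an adaptor that restrains insulin and IGF receptor signalling, had 180 reads in the parental library and 44 in the knockout library, a 4.19-fold fall (95% interval 3.0 to 5.96). SHC1, which links receptors to RAS, was 2.51-fold lower (95% interval 2.39 to 2.64), under the threshold.

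In the PI3K, AKT, FOXO and mTOR branch all 28 listed genes had enough reads, 2 rose, 3 fell and 23 were not past 3-fold, with a median log2 fold change of 0.17. The shares of 7.14% and 10.7% were under those of all genes, 12.8% and 11.7%, so the counts do not set this branch apart, and the values below are those of single genes. The regulatory subunits of PI3-kinase that bind IRS proteins were lower, with PIK3R1 at 2867 and 809 reads, a 3.63-fold fall (95% interval 3.35 to 3.93). PIK3R3 fell 3.73-fold (95% interval 3.35 to 4.17), and PIK3R2 was 1.75-fold lower (95% interval 1.54 to 1.98). The catalytic subunit PIK3CD rose 5.15-fold (95% interval 4.19 to 6.38), while PIK3CA was 1.38-fold higher (95% interval 1.29 to 1.48).

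The kinases AKT1 and AKT2 were 1.38-fold and 1.35-fold lower. INPP5D, an inositol phosphatase known mainly from blood cells, had 39 reads in the parental library and 0 in the knockout library. With the floor of 3 reads in place of 0 it was 13.3-fold lower, and the exact 95% interval starts at 10.3-fold lower. FOXO1, a transcription factor that AKT restrains and that is known to drive IRS2 and IGFBP1, had 70 and 92 reads, 1.28-fold higher (95% interval 0.930 to 1.78). A part of FOXO1 in the levels of IRS2 and IGFBP1 was not tested.

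**Figure D5:**
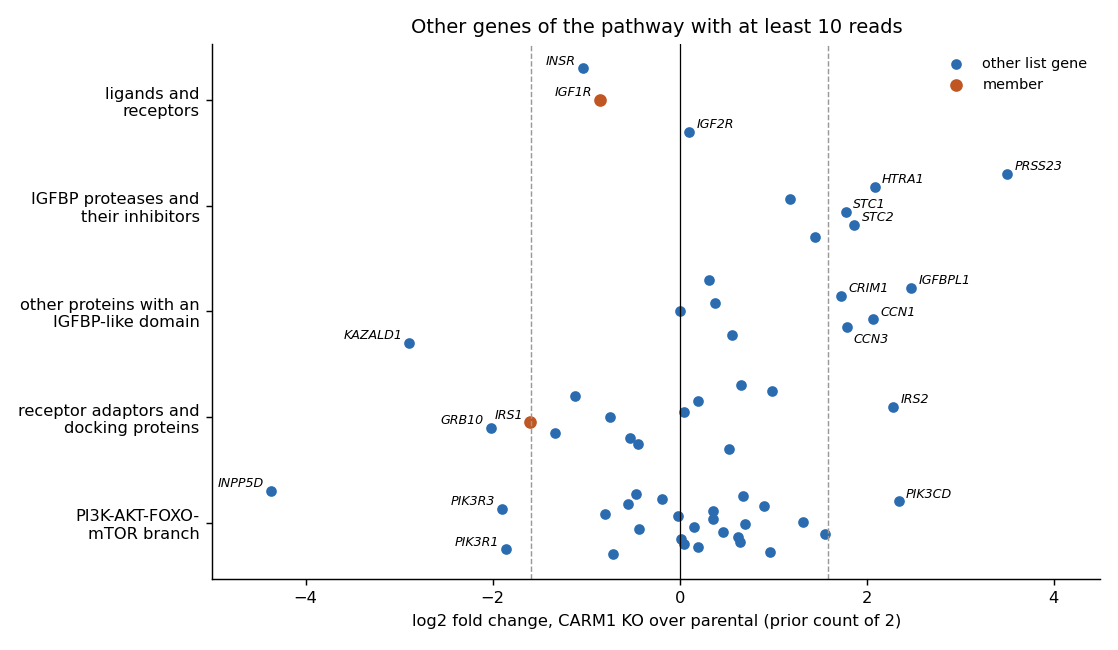
Log2 fold change, CARM1 KO over parental with a prior count of 2, of the pathway genes reported here with at least 10 reads, by list; vertical position within a list has no meaning, dashed lines mark 3-fold, and genes past it are named, as are the receptors. The protease list lies wholly to the right of 0, while the adaptor and PI3K lists fall on either side.

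With 2 libraries a pattern is a pair of levels. Among 11720 other protein-coding genes with at least 100 reads, the nearest to IRS1 was BCAS3, with 1533 and 510 reads and 3.49 and 1.13 RPKM. The nearest to IGFBP3 was IL18, with 900 and 6033 reads and levels of 11.1 and 72.6. The distances over the 2 log2 levels were 0.0125 and 0.373.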

How the data were processed

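The data are 1 RNA-Seq library of parental control and 1 of CARM1 KO A1847 cells, prepared from total RNA with the ScriptSeq complete Gold kit. Per the paper, the authors used bowtie2 on hg19 and then RSEM on Ensembl genes (version 1.2.3 in the submitters' processing notes; the paper's methods name another one), and deposited whole-number counts without normalization. RSEM divides reads among genes that share sequence. Identifiers were matched to GENCODE lifted to GRCh37, the build of hg19, for 55501 of 57736 genes; 2235 were not matched.

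The deposited counts were scaled by TMM in edgeR 4.0.16 under R 4.3.3. Fold changes are plain ratios of scaled reads with exact 95% binomial intervals (Clopper-Pearson, scipy 1.17.1), and levels have exact Poisson intervals; both cover counting error only. The floor for 0 reads was 3 reads. RPKM was computed here over all exons of a gene. A single library per group leaves nothing to estimate the spread for edgeR's quasi-likelihood test, so genes were called by a fold change above 3, given at least 10 reads over both libraries. The edgeR exact test at an FDR under 0.05 with an assumed coefficient of variation, other scalings with DESeq2 1.42.0 among them, other minimums, a prior count of 2 and a fold threshold of 2 were alternatives. The steps were also run on simulated counts with Poisson counting error only, which hold no spread between cultures or clones.

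The genes, lists and tests were chosen with earlier results of these data known. Named genes are the 10 genes, CARM1, the ligands and receptors, list genes past 3-fold, neighbours of genes past 3-fold and the gene nearest in level; others are named beside their list and were chosen after their values were seen. Some listed genes count in their list and are not reported here by name. Neither ChIP-seq data nor RPKM values from the authors were used here.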

Additional observations from a re-analysis of the deposited data

How the results depend on the processing

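No paired analysis was possible because each group holds 1 library, and for the same reason none was left out. IGFBP3 and IGFBP7 kept their call in 10 of 10 alternatives, and IGFBP1 and IRS1 in 7 of 10 each. The number of the 10 genes that fell was 0 with DESeq2 size factors, 0 where the whole interval had to lie past 3-fold and 0 in the edgeR exact test with a coefficient of variation of 0.4, in place of 1; IRS1 lies at the threshold. With a minimum of 1 read it was 2, since IGF1 at 2 reads and 0 reads then counts. All 36 recomputed fold changes of single genes under other scalings or a prior count of 2 stayed within their counting interval. The library-size, DESeq2 and upper-quartile scalings shift every gene alike, by -0.0373, 0.0340 and 0.0168 in log2. They were therefore a weak check of single genes.

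Over all 18563 genes compared there were 2372 rises and 2175 falls. With a minimum of 1 read there were 4915 and 5724 among 26878 genes. Where the whole interval had to lie past 3-fold there were 1292 and 1234. The exact test with a coefficient of variation of 0.4 gave 543 and 888, and a fold threshold of 2 gave 3631 and 3537. With at least 50 reads 1219 of 14527 genes fell. Of the 59 pathway list genes with enough reads, 11 rose and 6 fell, or 18.6% and 10.2% beside 12.8% and 11.7% of all genes. With a coefficient of variation of 0.4 these counts were 1 and 2. IGFBP3 held 58.9% of the family's summed RPKM in parental and 87.6% in CARM1 KO cells with canonical transcript lengths, a setting chosen after seeing the data. Transcripts under 10 reads are beyond the depth of these libraries.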
